A study of Mus musculus with 9 samples.

Results

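Translation initiation factors (eIFs) bring the small ribosomal subunit, the initiator tRNA and an mRNA together at the start codon, and elongation factors (eEFs) then move the ribosome along the message. In the lens these proteins serve a tissue whose fibre cells fill with crystallins before they lose their nuclei. The genes described here were chosen by name: every listed symbol that starts with Eif or Eef and a digit, without the sex-linked pair Eif2s3x and Eif2s3y. There were 56 such genes among 7676 genes listed once, 50 named for initiation and 6 for elongation. The name is not always the function: Eif2c1 and Eif2c2 are older symbols of the Argonaute genes Ago1 and Ago2 (RNA silencing), and Eef1e1 encodes a scaffold protein of the aminoacyl-tRNA synthetase complex.

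RNA was sequenced from mouse lenses at 15.5 days post conception, with 3 libraries from each of 3 groups and 30 lenses in each library. The inbred wild type lenses came from the strain labelled C57Bl/6<har>, and all values below are from these 3 libraries. The other groups were on a mixed background and carried floxed Sip1 alleles in both genotypes, without Cre (mixed wild type) or with the MLR10Cre transgene, which is active in lens cells (conditional knockout). Their tables used here held 190 genes, and none of the 56 was among them. Each of the 190 differed by at least 2.505-fold between knockout and mixed wild type in its mean deposited normalized value. The effect of Sip1 loss or of background on translation factor genes was therefore not analysed here, and absence from a list of that kind does not show that a gene was unaffected.

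Levels are given as RPKM, reads per kilobase of exon scaled to the mapped reads of the library, so that genes of different length can be compared. The depth was 16.7, 16.3 and 14.1 M reads in inbred libraries 1, 2 and 3, and a translation factor gene had between 180 and 99181 reads in a library. The tissue label was checked against marker genes. All 6 lens fibre markers were listed, with Cryaa at 89016 ± 2774 RPKM (SD, n = 3), and so were all 4 lens epithelial markers, with Foxe3 at 136 ± 21.5 RPKM. None of the 5 retinal, 10 muscle and 4 leukocyte markers was listed. Of 12 erythroid markers 6 were listed, all of them globin genes, with Hba-a2 the highest at 392 ± 27.8 RPKM. Of 10 neuronal markers 2 were listed, Uchl1 at 180 ± 14.7 RPKM, above Foxe3, and Stmn4 at 2.70 ± 0.17 RPKM. In pooled tissue, fewer cells of a type and less RNA per cell cannot be told apart.

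Short coding stretches show the sites for which several of these proteins are known, and how close the sequences of related genes are. Each is 60 bases of the coding strand from a GENCODE M21 transcript on GRCm38. The build behind the deposited values is not given in the sources used here. The first set is given because its genes had the largest ratio of all paralog pairs. eIF5A proteins carry hypusine, a modified lysine, and the capitals mark the codon of that lysine in Eif5a (chr11:69918007-69919195, minus strand, exons 3 and 4) and Eif5a2 (chr3:28782172-28782742, plus strand, exons 2 and 3).
Eif5a: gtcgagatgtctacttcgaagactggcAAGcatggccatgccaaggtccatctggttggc
Eif5a2: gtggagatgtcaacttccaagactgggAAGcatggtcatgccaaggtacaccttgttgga
The stretches were the same at 51 of 60 bases.

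The second set is given because the level of Eif4a1 differed most between the deposited measures among the abundant genes with a close copy. eIF4A proteins are DEAD-box RNA helicases, and the capitals mark the codons of the DEAD box. Eif4a1 is on chr11:69668689-69668748 (minus strand, exon 6), Eif4a2 on chr16:23110239-23110298 (plus strand, exon 6) and Eif4a3 on chr11:119294026-119294376 (minus strand, exons 6 and 7). Eif4a-ps4 is a processed pseudogene, a copy of an mRNA inserted in the genome, on chr1:60704451-60704510 (plus strand).
Eif4a1: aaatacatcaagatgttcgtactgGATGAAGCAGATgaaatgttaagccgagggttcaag
Eif4a-ps4: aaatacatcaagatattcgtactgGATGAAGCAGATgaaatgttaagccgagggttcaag
Eif4a2: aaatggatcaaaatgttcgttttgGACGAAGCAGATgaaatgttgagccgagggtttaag
Eif4a3: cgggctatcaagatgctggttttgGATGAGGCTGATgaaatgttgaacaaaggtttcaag
Against Eif4a1 the pseudogene differed at 1 base, Eif4a2 at 8 and Eif4a3 at 17. The most abundant gene of the 56 also had a near copy. In Eef1a1 (chr9:78480574-78480633, minus strand, exon 2) and the processed pseudogene Gm6767 (chr16:51363751-51363810, minus strand), which differed at 1 base, the capitals mark the codons of the loop that binds GTP.
Eef1a1: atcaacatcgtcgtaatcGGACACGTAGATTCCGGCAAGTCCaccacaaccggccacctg
Gm6767: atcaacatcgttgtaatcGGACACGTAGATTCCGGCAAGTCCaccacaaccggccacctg
Stretches of this kind cannot be told apart by a short read that misses the 1 base.

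As a group the 56 genes lay high in the list. Their median was 35.9 RPKM beside 7.65 RPKM over all listed genes, 48 of the 56 were above the list's median and 30 were among its 1000 highest genes. Their levels ran from 2.22 ± 0.03 RPKM (Eif4e3) to 2446 ± 74.3 RPKM (Eef1a1), with 12 genes at 100 RPKM or more and 7 under 5 RPKM. Together they held 1.19%, 1.21% and 1.32% of the summed RPKM of listed genes in libraries 1, 2 and 3. Crystallins held 61.2% ± 1.20 of that sum, and without them the translation factor share was 3.19% ± 0.11 (SD, n = 3). When the genes were ordered by mean, 39 of the 55 pairs of neighbours overlapped over the 3 libraries, so much of the order is within the replicate spread. Eef1a1, Eef2, Eef1g, Eif5a and Eif4a1 were each separate from the next gene, while Eif3h and Eif1 overlapped.

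**Figure D1:**
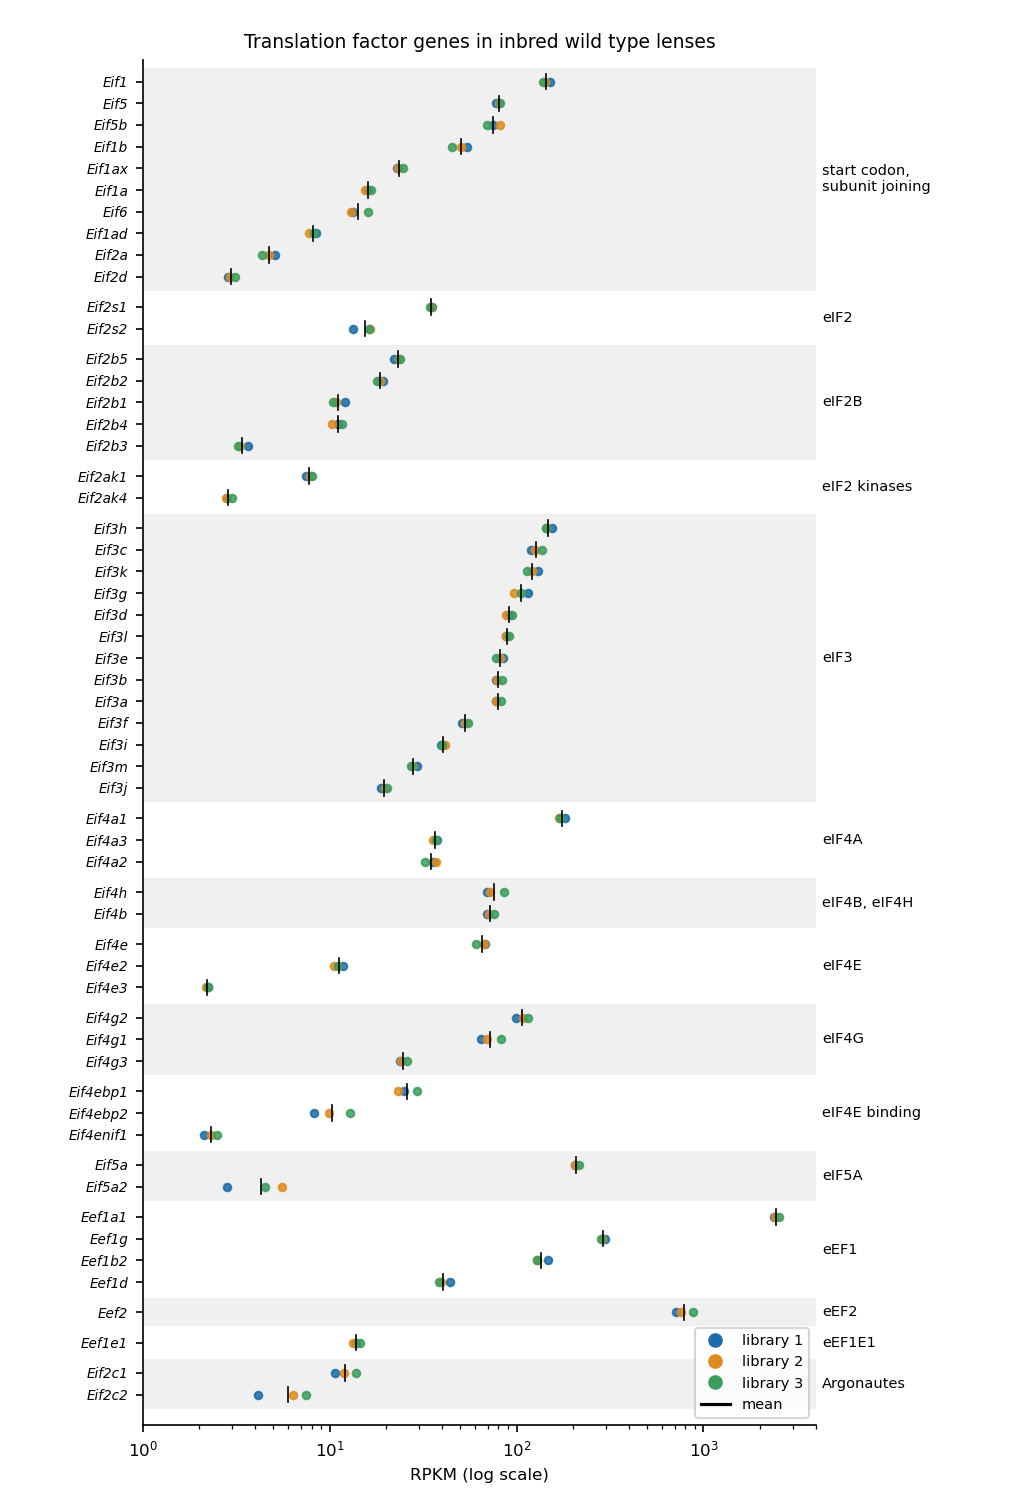
RPKM (log axis) of the 56 translation factor genes in the 3 inbred wild type libraries, by role. Points are libraries and black ticks their means. Eef1a1 at 2446 and Eef2 at 783 RPKM lie above all other genes, and most eIF3 subunits lie close together.

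The 3 most abundant of the 56 were the elongation factor genes Eef1a1, Eef2 and Eef1g, while Eef1b2, Eef1d and Eef1e1 were at places 8, 26 and 41. Eef1a1, which encodes the GTPase that delivers aminoacyl-tRNA to the ribosome, was at 2384, 2425 and 2528 RPKM, rank 16, 15 and 15 in its library. It alone made up 39.0% ± 0.28 of the summed RPKM of the 56 genes. Its paralog Eef1a2, the form of muscle and neurons, was not among the listed genes, whose lowest mean was 2 RPKM. Eef2, the GTPase that moves the ribosome by one codon, was next at 715, 756 and 877 RPKM (783 ± 84.1), with library 3 above the others. The exchange factor subunits that reload eEF1A with GTP differed among themselves. Eef1g was at 299, 286 and 285 RPKM and Eef1b2 at 147, 129 and 129 RPKM. Eef1d was the lowest of them at 43.8, 39.6 and 38.3 RPKM. Eef1g was thus above Eef1b2, and Eef1b2 above Eef1d, in every library. Eef1e1 was at 13.8, 13.3 and 14.5 RPKM, and Eef2k, the kinase that inhibits eEF2, was not listed. The 6 Eef genes summed to 3708 ± 144 RPKM and the 50 Eif genes to 2555 ± 34.9 RPKM.

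The 13 subunits of eIF3, the scaffold that holds the initiation complex on the small subunit, were all listed. Their median was 81.2 RPKM, and 9 of them, from Eif3a to Eif3h in level, lay between 79.2 and 147 RPKM. Eif3h was the highest at 155, 144 and 143 RPKM, and Eif3c was at 120, 126 and 137 RPKM. The core subunits Eif3a and Eif3b were close, at 79.2 ± 3.22 and 79.9 ± 3.55 RPKM, and overlapped over the libraries. Eif3f, Eif3i, Eif3m and Eif3j were below the rest in RPKM, at 52.9, 40.3, 28.0 and 19.6. The low place of Eif3i depended on the exon length used (described below). Eif3j encodes a loosely bound subunit and was at 18.8, 19.9 and 20.2 RPKM, so the highest subunit was 7.50 times the lowest. That spread depended on the measure: it was 70.6 times in the authors' normalized values per exon length, and 3.01 times in RPKM without the 5 subunits that share at least 10% of their sequence words with other genes (described below), Eif3c, Eif3e, Eif3h, Eif3j and Eif3m.

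eIF2 carries the initiator tRNA, and eIF2B reloads it with GTP. Eif2s1, the alpha subunit, was at 35.3, 34.95 and 34.5 RPKM, a coefficient of variation (CV, the SD as a percentage of the mean) of 1.24%. The beta subunit gene Eif2s2 was lower in RPKM, at 13.4, 16.5 and 16.3, with no overlap. Its exon length was 2.66 times that of its longest protein-coding GENCODE transcript, beside 1 for Eif2s1. At transcript length Eif2s2 would lie above Eif2s1 in each library, narrowly in library 1, so their order in RPKM depended on the length used. In the authors' normalized values per kilobase of exon Eif2s2 was far lower, at 34.2 beside 693 for Eif2s1. Eif2s2 shared 32.1% of its sequence words with a pseudogene (described below). All 5 eIF2B subunits were listed. The catalytic subunit gene Eif2b5 was the highest at 22.1, 23.6 and 23.8 RPKM and Eif2b3 the lowest at 3.67, 3.31 and 3.23 RPKM, a 6.81-fold range. Eif2b2 was at 18.6 RPKM, and Eif2b1 and Eif2b4, at 11.1 and 11.0 RPKM, overlapped.

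Phosphorylation of a serine in the eIF2 alpha subunit blocks that reloading and lowers translation in general. The stretch of Eif2s1 with the codon of that serine in capitals (chr12:78866653-78866712, plus strand, exon 2) is given because both listed kinase genes act on it.
Eif2s1: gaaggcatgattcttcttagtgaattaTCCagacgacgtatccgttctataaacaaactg
Of its 4 kinases, 2 were listed. Eif2ak1, the kinase regulated by heme, was at 7.50, 7.83 and 8 RPKM. The 6 listed erythroid markers, a sign of red cells, summed to 1069 to 1114 RPKM in the same libraries, the other 6 were not listed, and their part in the Eif2ak1 level was not tested. Eif2ak4, which responds to uncharged tRNA, was lower at 2.84, 2.77 and 2.99 RPKM. Eif2ak2 and Eif2ak3, the kinases of double-stranded RNA and of endoplasmic reticulum stress, were not among the listed genes. Of 10 genes for eIF2 phosphatase subunits and outputs of this pathway 8 were listed, from Ppp1r15a at 2.51 ± 0.15 RPKM to the transcription factor gene Atf4 at 81.0 ± 2.51 RPKM.

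Factors for start codon choice and subunit joining covered a 48.2-fold range. Eif1, which guards start codon choice, was the highest at 150.2, 142 and 138 RPKM and its paralog Eif1b was at 54.5, 50.7 and 45.3 RPKM. Eif5, which activates the GTPase of eIF2, and Eif5b, which joins the subunits, were at 80.2 ± 1.99 and 75.2 ± 5.82 RPKM. The eIF1A genes were lower, with Eif1ax at 22.9, 23.1 and 24.8 RPKM and Eif1a at 16.1, 15.4 and 16.7 RPKM. Eif6, which keeps free large subunits apart, was at 14.1 ± 1.61 RPKM. The alternative tRNA carriers Eif2a and Eif2d were at 4.72 ± 0.39 RPKM and at 2.87, 2.93 and 3.11 RPKM. Of these genes Eif5 and Eif5b overlapped, and so did Eif1a and Eif6.

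The cap-binding complex eIF4F joins a cap-binding protein (eIF4E), a scaffold (eIF4G) and a helicase (eIF4A). Eif4a1 was at 181, 170 and 172 RPKM. Eif4a2 was at 35.7, 37.0 and 32.3 RPKM and overlapped with Eif4a3, a helicase of the exon junction complex, at 37.6, 35.6 and 37.2 RPKM. The helicase cofactor genes Eif4h (69.8, 72.2 and 86.0 RPKM) and Eif4b (69.5, 70.9 and 75.5 RPKM) overlapped. Eif4g2, a scaffold that does not bind eIF4E, was above the main scaffold gene in each library, at 98.8, 108 and 115 RPKM beside 64.4, 69.3 and 83.0 RPKM for Eif4g1. Eif4g3 was at 23.8, 24.0 and 26.0 RPKM.

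Eif4e was at 67.7, 66.6 and 60.5 RPKM, above Eif4e2, whose protein is a weaker cap binder, at 11.8, 10.5 and 11.1 RPKM. Eif4e3 had the lowest mean RPKM of the 56, at 2.24, 2.18 and 2.23 RPKM. The genes of the eIF4E inhibitors and transporter were lower than Eif4e in each library. The inhibitor genes Eif4ebp1 and Eif4ebp2 were at 25.1, 23.3 and 29.3 RPKM and at 8.29, 9.86 and 12.8 RPKM. Eif4enif1, an eIF4E transporter, was at 2.12, 2.31 and 2.51 RPKM, and Eif4ebp3 was not listed. Eif5a, which helps ribosomes past stretches such as proline runs, was at 206, 206 and 215 RPKM, and its paralog Eif5a2 at 2.82, 5.53 and 4.52 RPKM. Argonaute genes were at 10.7, 11.9 and 13.8 RPKM (Eif2c1) and 4.12, 6.34 and 7.50 RPKM (Eif2c2). In all 9 paralog pairs with both genes listed the same paralog was higher in all 3 libraries, from a log2 ratio of 0.55 ± 0.04 for Eif1ax over Eif1a to 5.66 ± 0.49 for Eif5a over Eif5a2 (SD, n = 3). An exact test over 3 libraries cannot reach 0.05, and none was made.

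The deposited tables hold a second measure, the authors' normalized expression value, and for some genes it gave another picture. Per RPKM and exon length, this value was under 0.5 of the median of listed genes in 6 of the 56 genes (10.7%) and in 550 of 7676 listed genes (7.17%). The 6 were Eif2s2 (0.090), Eif3j (0.097), Eif4a1 (0.233), Eif3m (0.289), Eef1a1 (0.360) and Eif1 (0.397). Ordered by normalized value per kilobase, Eef1a1 and Eef2 still led, but Eif4a1 went from place 5 to 25 among the 56 and Eif1 from 7 to 21. Eif3m went from 31 to 45, Eif3j from 36 to 54 and Eif2s2 from 39 to 56. The other 51 genes moved by fewer than 10 places. The log2 ratio of Eif4a1 over Eif4a2 was 2.32 ± 0.11 in RPKM and 0.41 ± 0.10 in normalized values, and that of Eif1 over Eif1b was 1.52 ± 0.08 and 0.19 ± 0.10 (SD, n = 3). The first gene was higher in each library in both measures, but the size of its lead depended on the measure. For Eif5a over Eif5a2 the ratios were alike, 5.66 and 5.65.

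**Figure D2:**
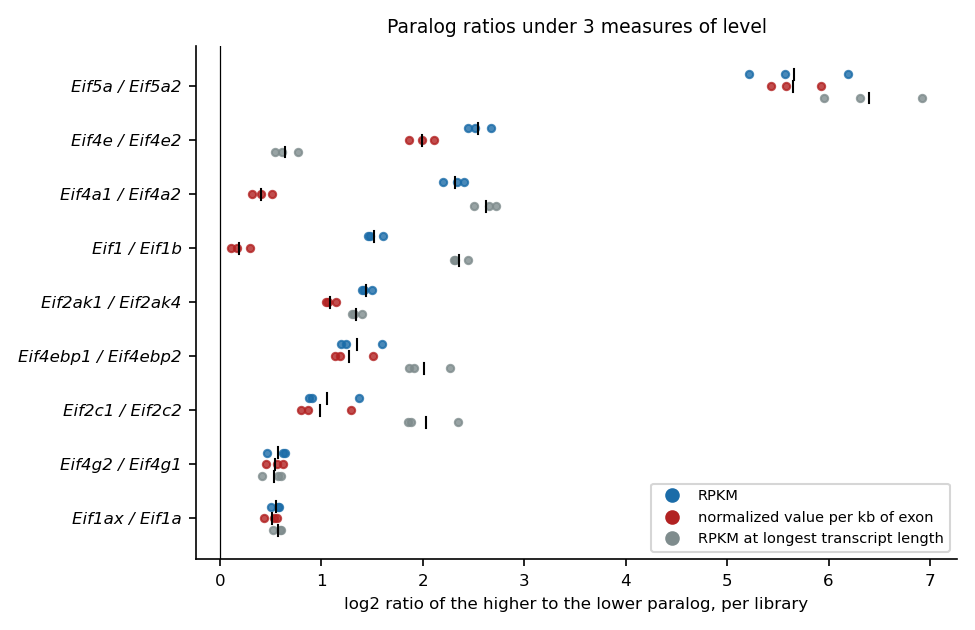
Log2 ratio of the higher to the lower paralog in each of the 3 inbred wild type libraries (points, with ticks at the means). The measures are RPKM, the normalized value per kilobase of exon, and RPKM rescaled to the longest protein-coding GENCODE transcript. The ratio for Eif4a1 over Eif4a2 is 2.32 in RPKM and 0.41 in normalized values, and no point lies below 0.

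The 6 translation factor genes with a low normalized value all shared sequence with other genes. To measure sharing, the longest transcript of each gene was cut into overlapping words of 31 bases. Protein-coding transcripts were taken before others when the longest was chosen. Words also found in any transcript of another gene, read on its own strand, were counted as a percentage. It was at least 10% in 19 of the 56 genes (33.9%) and in 1030 of 7606 matched listed genes (13.5%). Pseudogenes held more of the shared words than protein-coding genes did in 15 of the 19, and 41 of the 56 shared some words with a pseudogene. The latter count takes in genes with very few such words, as in Eif4h with 0.074%. Neither count was made over all listed genes. Eef1a1 shared 72.3% of its words with 27 other genes, and the 22 pseudogenes among them held 67.9%. Eef1g shared 68.0% (10 pseudogenes), Eif4a1 67.5% (8 pseudogenes) and Eif3m 53.7% (2 pseudogenes). Eif3j, the gene now named Eif3j1, shared 41.3%, mainly with its coding copy Eif3j2. Values of these genes in either measure are uncertain, since the sources used here do not say how reads with several matches were counted. All 6 genes under 0.5 shared at least 10%, as did 13 genes above it, while over all matched listed genes 326 of those under 0.5 shared at least 10% and 215 shared less. Eef1g was at 0.746, Eif3h, which shared 37.4%, at 0.916, and Eif3e, which shared 42.0%, at 0.764. Genes with much sharing thus lay on both sides of 0.5. Across the 56 genes the rank correlation of the 2 quantities was -0.60, and -0.30 across the matched listed genes. Neither correlation took the level of the genes into account, and Eef1a1, the most abundant of the 56, also shared the most. The correlations are descriptions across genes of the same libraries, which are not independent replicates.

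**Figure D3:**
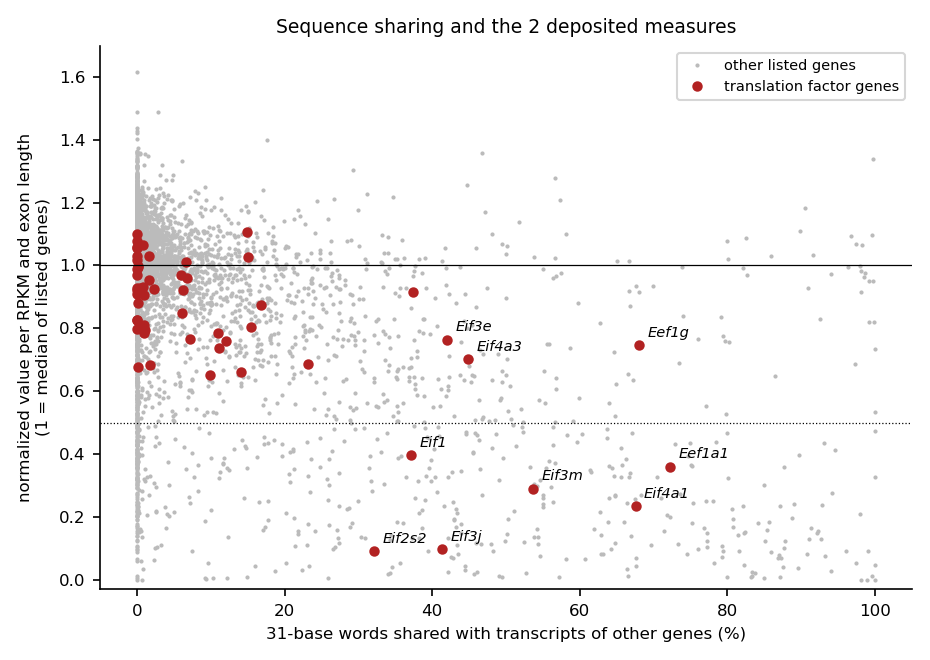
Percentage of 31-base words shared with transcripts of other genes (x axis) and normalized value per RPKM and exon length, relative to the median of listed genes (y axis), for the translation factor genes (red) and other listed genes (grey). The dotted line is at 0.5, and the 6 red points under it share between 32.1% and 72.3% of their words.

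Exon lengths bear on RPKM as well. Protein-coding transcripts were again taken before others when the longest was chosen. The length used by the authors was at least 2 times that of the longest GENCODE transcript in 9 of the 56 genes (16.1%) and in 7.80% of matched listed genes. It was 3.30 times in Eif3i and 2.44 times in Eif4a1, and 0.309 times in Eif4ebp2. In Eif4e3 it was 2.27 times, and at transcript length Eif4e3 would not be the lowest of the 56. By normalized value per kilobase Eif4e3 was at place 53. At the length of the longest transcript, Eif4e over Eif4e2 had a log2 ratio of 0.64 in place of 2.54, and Eif4a1 over Eif4a2 2.63 in place of 2.32. The eIF3 spread was then 6.78 times. Eif3i would lie above Eif3a and Eif3b in each library at that length, and Eif3k slightly above Eif3h by mean. The places of Eif3i and Eif3h among the subunits thus depended on the length used.

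The spread between libraries was mostly small. The median CV of the 56 genes was 4.76%, beside 7.21% over all listed genes. Over the 7378 other genes between the lowest and highest mean of the 56 it was 7.17%. That range takes in most of the list and does not match genes by level. The 56 had a median of 35.9 RPKM, beside 7.65 RPKM over all listed genes, and no comparison with genes of like level was made. The CV was under 5% in 30 of the 56 genes (53.6%) and in 30.2% of all listed genes. In 8 of the 56 (14.3%) and in 27.4% of all listed genes it was below the counting error of the reads, which is larger for genes with fewer reads. The median counting error of the 56 was 2.29%. In 33 of the 56 the CV was more than 2 times the counting error, a count not made over all listed genes. Only 3 genes (5.36%) exceeded 20%, a share that was 3.06% over all listed genes: Eif5a2 (31.9%), Eif2c2 (28.7%) and Eif4ebp2 (22.2%). Their lowest library was library 1 in each case. Eif5a2 had 235 reads there and 450 and 319 in the others, and its counting error was 5.66%. Of the 7 genes between 10% and 20%, 6 were highest in library 3 (Eef2, Eif4g1, Eif4h, Eif4ebp1, Eif6 and Eif2c1), and Eif2s2, at 11.3%, was highest in library 2.

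**Figure D4:**
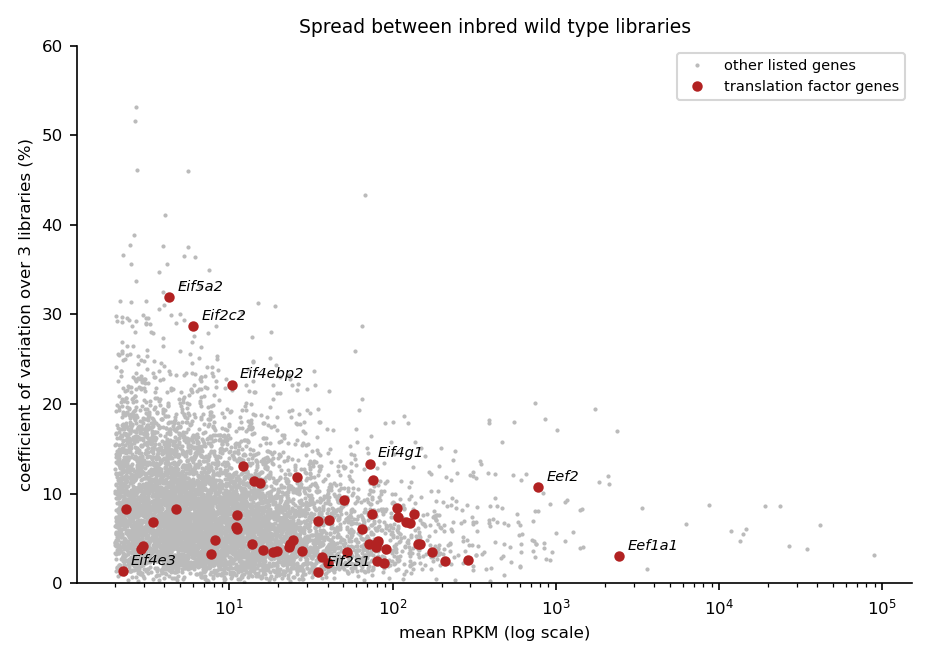
Coefficient of variation over the 3 inbred wild type libraries against mean RPKM (log axis) for translation factor genes (red) and other listed genes (grey). The y axis ends at 60%, above which 4 other genes lie. Eif5a2, Eif2c2 and Eif4ebp2 are the red points above 20%.

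The libraries differed from each other in part by gene length. Library 3 was the highest of the 3 for 30 of the 56 genes (53.6%) and 52.4% of all listed genes, and library 1 for 21 (37.5%) and 29.6%. Of genes longer than 3033 bases, the median length of the 56, 19 of 28 were higher in library 3 than in library 1, and of the others 14 of 28. Over all listed genes these shares were 75.9% and 40.2%, so the lean was present, and larger, over the whole list. Cytoplasmic ribosomal protein genes were highest in library 1 in 72 of 77 cases (93.5%). Their median length was 1464 bases, and the part of length in that lean was not tested. The part of library preparation in these differences was not tested.

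Textbook members of the class with a terminal oligopyrimidine tract, mRNAs whose translation follows growth signals together with those of ribosomal proteins, were among the abundant ones. The 9 genes were Eef1a1, Eef1b2, Eef1d, Eef1g, Eef2, Eif3e, Eif3f, Eif3h and Eif4b. Their median was 135 RPKM, beside 24.6 RPKM for the other 47, and 7 of the 9 shared at least 10% of their words with other genes, beside 12 of the 47. The 2 groups overlapped, since Eef1d at 40.6 RPKM lay below many of the 47 and Eif5a at 209 RPKM above 6 of the 9.

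Other genes of the translation machinery give a scale for these levels. The 77 cytoplasmic ribosomal protein genes had a median of 236 RPKM and summed to 3.80 ± 0.29 times the translation factor genes. In 65 of these 77 the normalized value per RPKM and exon length was under 0.5 of the median of listed genes. The 20 cytoplasmic aminoacyl-tRNA synthetase genes, which charge tRNAs, were all listed, between Farsa at 8.89 and Gars at 75.95 RPKM, with a median of 25.6 RPKM. All 8 termination and recycling genes were listed, from Gspt2 at 2.90 to the release factor gene Etf1 at 56.5 RPKM. Of 15 genes for poly(A) binding and regulation of translation 14 were listed, with the poly(A) binding protein gene Pabpc1 the highest at 226 ± 10.1 RPKM and the kinase gene Rps6kb1 the lowest at 3.69 RPKM. Of 9 mitochondrial translation factors 7 were listed, with a median of 4.21 RPKM and Tufm, the mitochondrial counterpart of eEF1A, at 39.2 ± 2.19 RPKM. These lists were described by their values only and not tested against the translation factor genes. Of all these lists only ribosomal protein genes were among the 190 genes of the mixed wild type and knockout tables, 12 of them. In RPKM their ratio of knockout to mixed wild type ran from 0.220 to 0.884. The 2.505-fold limit of the 190 is in normalized values and thus does not hold in RPKM. Those tables hold no genes outside the 190, so no share over all genes can be set beside the 12.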

How the data were processed

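Lens RNA of 3 inbred wild type, 3 mixed wild type and 3 conditional knockout libraries was deposited as 1 table per library. Per the labels' protocols, the sequencing libraries came from a TruSeq kit, and the submitters' processing notes name CASAVA 1.8.2. Each gene has 2 deposited measures per the file headers, RPKM and a normalized expression value, and an exon length in the inbred tables. Aligner, annotation and build were not given in the sources used here. The authors' normalized expression value is a score with no stated unit.

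Of 7700 inbred rows, 24 with repeated symbols were left out, none of them a translation factor gene. RPKM times exon length fell on whole reads (100% of 60 low values per library, tolerance 0.1 reads), which gave depths and reads per gene. This step recovered known depths on simulated data. Counting error is the Poisson error of these reads. Means, SDs, ranks, CVs and log2 ratios were computed with Python 3.11.15, numpy 2.4.6, pandas 2.3.3 and scipy 1.17.1. The limma tests planned between groups were not made, since no member was in the other tables. Each replicate is a pool of 30 lenses. Protein-coding transcripts were taken before others when the longest transcript of a gene was chosen. GENCODE M21 (GRCm38) gave sequences, word sharing and transcript lengths for 7606 genes by symbol or, for older symbols, RefSeq synonyms. It held 66 coding genes that fit the name rule, of which 10 were not listed. Ribosomal protein genes were taken by symbol, without like genes and Rps19bp1.

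Library values were printed for the 6 highest and 6 lowest genes, paralog pairs and the highest and lowest gene per role (the rule for named genes). Those of Eif3c, Eef1b2 and Eif4a3 were added after their values were seen. The members and lists were chosen with earlier results of these data known. Alternatives were normalized values per length, repeated symbols kept, a minimum of 5 RPKM, libraries left out and crystallins left out. Transcript length, the removal of genes with at least 10% shared words and the removal of Argonaute genes were added after the data were seen.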

Additional observations from a re-analysis of the deposited data

How the results depend on the processing

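No paired analysis was possible because the 56 genes had values in 1 group only and no test was made. Other settings of the tests between groups gave no value for the same reason. Keeping repeated symbols moved none of the 13 results by more than the spread between libraries. With normalized values per exon length the share of the sum was 1.37% (1.24% in RPKM), the median CV 6.87%, the eIF3 spread 70.6 times, and the log2 ratios 0.19 (Eif1 over Eif1b), 0.51 (Eif1ax over Eif1a), 0.41 (Eif4a1 over Eif4a2), 1.99 (Eif4e over Eif4e2) and 1.09 (Eif2ak1 over Eif2ak4). With the longest GENCODE transcript as length, the share was 1.33%, the median rank percentile 89.4 (88.2 at the authors' length), the eIF3 spread 6.78 times, and the log2 ratios 2.36 (Eif1 over Eif1b), 2.63 (Eif4a1 over Eif4a2), 0.64 (Eif4e over Eif4e2), 2.02 (Eif4ebp1 over Eif4ebp2), 6.40 (Eif5a over Eif5a2), 1.34 (Eif2ak1 over Eif2ak4) and 2.03 (Eif2c1 over Eif2c2). Without genes sharing at least 10% of their words, the share was 0.294%, the median percentile 81.4, the median CV 6.04% and the eIF3 spread 3.01 times, by construction over fewer genes. The share without crystallins was 3.19%. Among genes of at least 5 RPKM the median percentile was 87.3, and without the Argonaute genes it was 89.0. Leaving out each library gave a median CV of 3.87% to 5.75%, the latter without inbred replicate 2. No paralog ratio changed its sign, but in RPKM Eif2s2 would lie above Eif2s1 at the longest transcript length. The cause of these shifts was not tested. Depth limits the lowest genes: Eif4e3, with 180 reads in library 3, had a mean counting error of 7.11%.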
